A study of Caenorhabditis elegans with 12 samples.

Results

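The microRNAs described here are the early-cloned ones of *Caenorhabditis elegans* that lie outside the large seed families. They were chosen by the number of their gene (*mir-57*, *mir-59*, *mir-67* to *mir-70*, *mir-76* to *mir-78*, *mir-85*, *mir-231*, *mir-232*, *mir-242* to *mir-245*, *mir-248*, *mir-249* and *mir-253* to *mir-273*). Of these 39 numbers, 36 had a line in the count table, and their 37 hairpins gave 52 of its 368 mature microRNAs, both arms included. Small RNA libraries were made from N2, the wild-type laboratory strain, as whole worms at day 1, day 7, day 14 and day 21 of adulthood, with 3 biological replicates at each age and 12 libraries in all. No worm carried a mutation or transgene or received a treatment, and day 1 served as the baseline. Adults were moved to new plates through the egg-laying period, and any with larvae hatched inside were taken out. Each library came from a pool of hermaphrodite bodies with every tissue and any eggs inside, so that fewer cells of a type and less RNA per cell cannot be told apart.

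A microRNA gene is transcribed as a hairpin that Drosha and Dicer cut to a short duplex. One strand of the duplex, the guide, is kept by an Argonaute protein and pairs with target mRNAs through its seed, while the other strand is mostly degraded, so that the 5p and 3p arms of a hairpin usually differ widely in level. microRNA genes were numbered in the order in which they were found, and the set is therefore no family and no pathway. A few of its genes have a known role. *mir-57* acts in the patterning of the posterior body with the Hox gene *nob-1*, *mir-85* has been reported to repress the heat shock gene *hsp-70* after heat stress, and *mir-67* has been reported to act in the avoidance of pathogenic bacteria through *sax-7*. miR-67 is also widely used as a control oligo in mammalian cells. miR-243 is bound by RDE-1, the Argonaute of the RNA interference pathway, and triggers small interfering RNAs against its target. *mir-273* was proposed to act with *lsy-6* in the left-right asymmetry of a pair of taste neurons.

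The libraries held 5784056 to 16867232 counts, and levels are given as CPM, which are counts scaled to library size, here with TMM factors. A microRNA was tested where at least 3 libraries reached 1.36 CPM, and the rest were left out of every test. All ages entered a single edgeR model (quasi-likelihood F test). p-values were adjusted by Benjamini and Hochberg's method across the whole tested table, and a call needs an adjusted p under 0.05. Folds are the log2 ratio of the later age over the earlier one. Day 14 replicate 1 was nearer to day 21 replicates 2 and 3 (a root mean square log2 difference of 0.656) than to the other day 14 libraries (0.847), and day 21 replicate 1 was nearer to day 14 replicates 2 and 3 (0.578) than to the other day 21 libraries (0.825). Within day 1, replicate 2, the smallest library, lay farthest from the others (0.814, against 0.612 and 0.621). The labels were kept as given, and whether day 14 replicate 1 and day 21 replicate 1 had been exchanged was not tested, so values of these ages rest on the labels of both. As a view of the worm's make-up, 8 of the miR-35 family 3p arms, known from the germline and embryos, together took 1.92% to 2.44% of the counts in day 1 worms and 8.10% to 10.2% in day 7 worms. In day 14 worms they took 19.8% to 22.3%, and in day 21 worms 19.9% to 21.8%. miR-1-3p of muscle took means of 1.43%, 1.06%, 0.660% and 0.747% at the 4 ages in turn (0.602% to 1.65% over the 12 libraries). For miR-228-5p of glia the means were 2.22%, 1.19%, 2.80% and 3.04% (1.08% to 3.75%). Those of miR-234-3p of neurons were 0.0351%, 0.0313%, 0.0298% and 0.0330% (0.0286% to 0.0387%). miR-124-3p of neurons had means of 0.000748%, 0.000769%, 0.000892% and 0.00135% (0.000519% to 0.00174%). let-7-5p of the late larval and adult soma took 0.0309% to 0.0753% in day 21 worms, against 0.779% to 1.00% in day 1 worms. The part of such changes in the results below was not tested.

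Of the 52 mature microRNAs, 30 from 22 hairpins were measured well enough to be tested and 22 were not. miR-70-3p led with a mean of 59588 CPM over the 12 libraries, the 5th highest of all 368 microRNAs. It was followed by miR-77-3p with 15692 CPM, miR-57-5p with 11304 CPM and miR-85-3p with 5390.4 CPM. Another 9 had means between 100 and 1000 CPM, in the order miR-77-5p, miR-59-3p, miR-248, miR-253-3p, miR-76-3p, miR-245-3p, miR-254, miR-78 and miR-243-3p. miR-242, miR-259-5p, miR-249-3p, miR-231-3p, miR-67-3p, miR-244-5p, miR-232-5p, miR-232-3p and miR-57-3p made up the 9 between 10 and 100 CPM. The other 8, miR-259-3p, miR-231-5p, miR-255-3p, miR-260, miR-70-5p, miR-67-5p, miR-243-5p and miR-262, lay under 10 CPM on average. Neighbours in this order mostly overlapped in their libraries, for example miR-76-3p (177 to 372 CPM) and miR-245-3p (152 to 308 CPM). With the unscaled CPM of the table, 8 of the 30 changed rank, by at most 2 places.

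**Figure D1:**
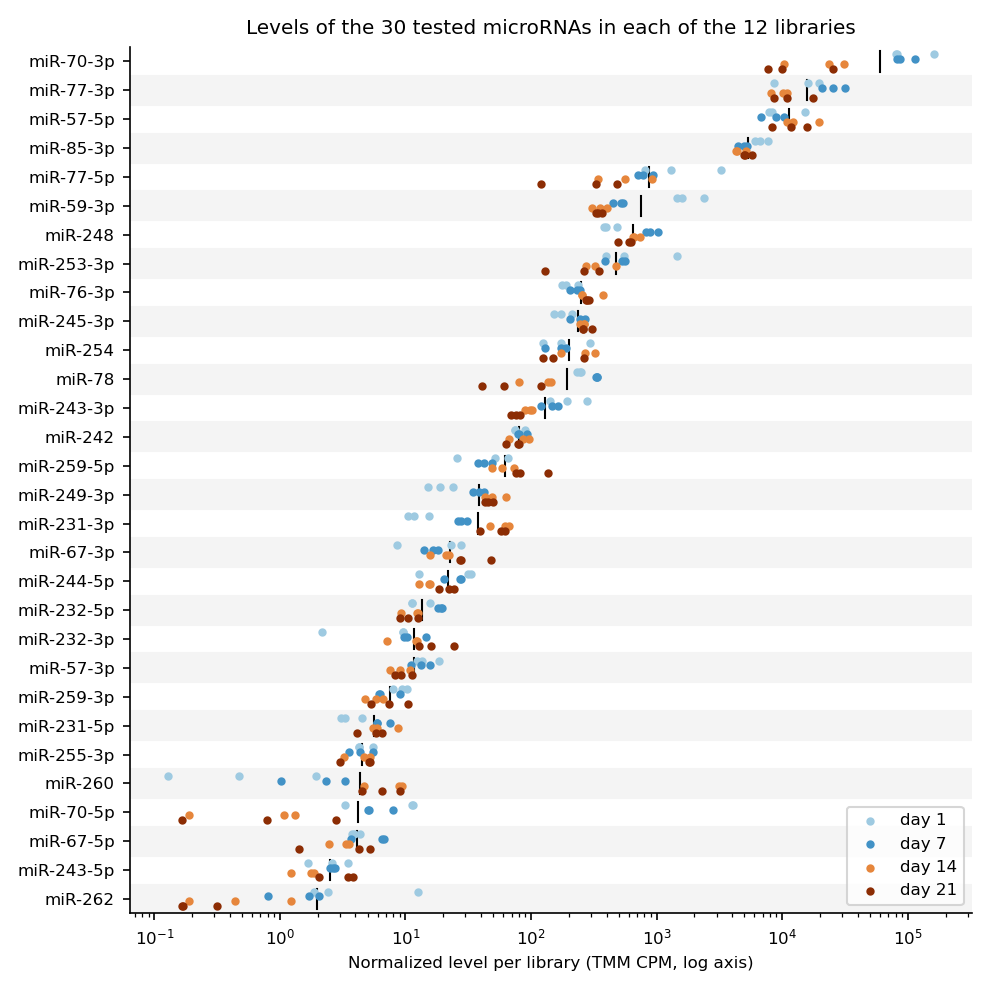
Level of each of the 30 tested microRNAs in the 12 libraries (x axis: TMM CPM on a log axis; points: libraries coloured by age; black bar: mean over the 12 libraries). The means run over more than 4 orders of magnitude, from 59588 CPM for miR-70-3p to 1.99 CPM for miR-262.

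The 22 microRNAs that were not tested had at most 44 counts each over the 102052290 counts of the 12 libraries. Of these, 10 had any count, which were miR-244-3p (44), miR-85-5p (40), miR-255-5p (17), miR-269 (12), miR-59-5p (12), miR-245-5p (8), miR-76-5p (8), miR-257 (3), miR-266 (2) and miR-249-5p (1). Thus 6 of the 10 are the rare arm of a hairpin whose other arm had a mean above 10 CPM, and miR-255-5p is that of a hairpin whose other arm was tested. No read was counted for the other 12, which were miR-253-5p, miR-256, miR-258, miR-261, miR-264, miR-265, miR-267, miR-268, miR-270, miR-271, miR-272 and miR-273, and a count of 0 allows up to 3 counts, or 0.0294 CPM over the pooled libraries, with counting error alone considered. In all, 25 hairpins had a count on some arm and 12 had none. The hairpins with none all carry numbers from *mir-256* upwards, and in that range only *mir-259*, *mir-260* and *mir-262* had an arm that could be tested. *mir-273*, the gene proposed for neuronal asymmetry, lies in an intron of *pde-3* (WBcel235, chromosome II from 14947039 to 14947132 on the plus strand) and had no count at any age.

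The set as a whole took 15.7% ± 1.94 of the counts in day 1 worms and 14.3% ± 1.22 in day 7 worms (SD, n = 3 each). In day 14 worms it took 4.82% ± 1.07, and in day 21 worms 4.63% ± 1.34. Every library of day 14 and day 21 (3.58% to 6.16%) lay below every library of day 1 and day 7 (13.1% to 17.7%). miR-70-3p alone supplied 63.0% of the set's counts, and the 4 most abundant microRNAs 95.9%. Most of the drop in the set's share between day 7 and day 14 lay in miR-70-3p, which took 11.4% ± 2.55, 9.75% ± 1.20, 1.98% ± 1.02 and 1.43% ± 1.03 of the counts at the 4 ages in turn.

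**Figure D2:**
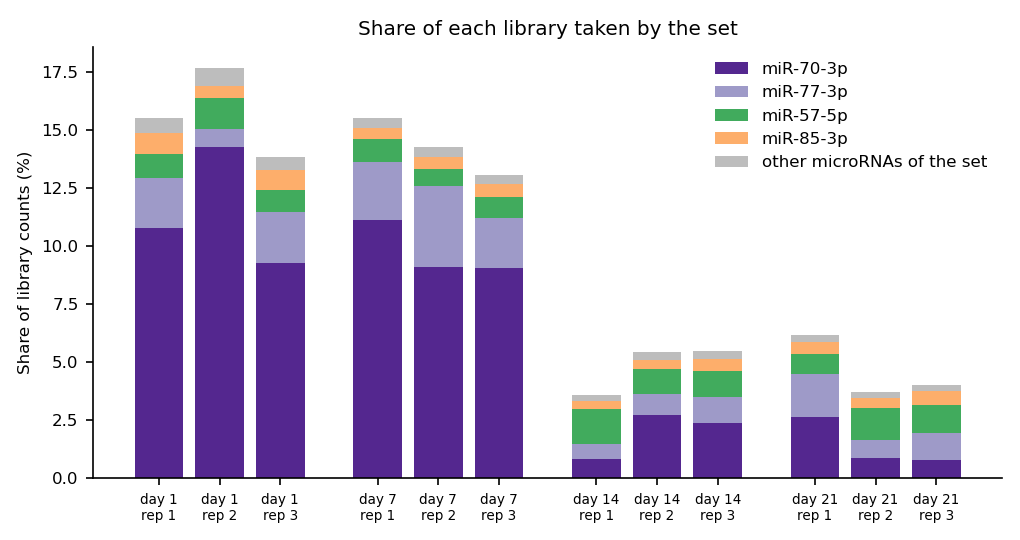
Share of each library's counts taken by the set (y axis: percent of counts; bars: the 12 libraries by age and replicate; colours: the 4 most abundant microRNAs and the rest of the set). The bars stand at 13.1% to 17.7% at days 1 and 7 and at 3.58% to 6.16% at days 14 and 21, and the part that shrinks is mainly miR-70-3p.

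Counted over the 30 tested microRNAs, few passed by day 7 in the edgeR fit, and more fell than rose at day 14. At day 7 against day 1, 4 rose (miR-231-3p, miR-231-5p, miR-248 and miR-249-3p) and 1 fell (miR-59-3p). That is 16.7% of the 30, where 39.2% of the whole tested table passed (21.2% higher and 18% lower). With DESeq2, 11 of the 30 passed at day 7 (8 higher and 3 lower), so that this count depended on the method. In the edgeR fit, day 14 against day 1 gave 7 that rose and 12 that fell. These are 63.3% of the 30, against 69% of the table (34.3% higher and 34.7% lower). For day 21 against day 1, the set had 6 that rose and 9 that fell, or 50%, against 71% of the table (35.1% higher and 35.9% lower). Under scaling by total counts, 3 rose and 14 fell for day 14. For day 21 the split was 3 higher and 9 lower with that scaling, 8 and 9 with RLE size factors, 9 and 9 with DESeq2, and 8 and 7 where each library had to reach 10 counts. The split thus changed with the setting. The share of the whole table was counted in the main fit only, so none stands beside the counts of other settings. With scaling by total counts the median log2 fold change of the table was -0.41 for day 14 and -0.26 for day 21. With TMM it was -0.12 and -0.06. Between day 7 and day 14, 2 rose and 5 fell, or 23.3%, against 41.2% (24.1% higher and 17.1% lower). Over the 4 ages together 17 of the 30 differed, or 56.7%, against 74.3%. The libraries did not overlap with those of day 1 for 10 of the 30 in day 7 worms, where 54.7% of the table did not. The same count was 17 for day 14 (69.8% of the table) and 18 for day 21 (73.5%). It was 17 for day 14 against day 7 (62.9%). The median log2 fold changes of the 30 against day 1 were -0.07 for day 7, -0.26 for day 14 and -0.13 for day 21. miR-262 and miR-70-5p passed the filter on low counts mainly through the younger ages and miR-260 through the older ones, so that their changes were favoured by that filter. The count at day 14 was 11 without day 14 replicate 1 and 12 without both that library and day 21 replicate 1. At day 7 it was 8 without either of them and 9 without both. The split of 4 higher and 1 lower at day 7 depended on single libraries, and was 3 and 4 without day 1 replicate 1 or day 21 replicate 3, and 4 and 4 without day 14 replicate 1.

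**Figure D3:**
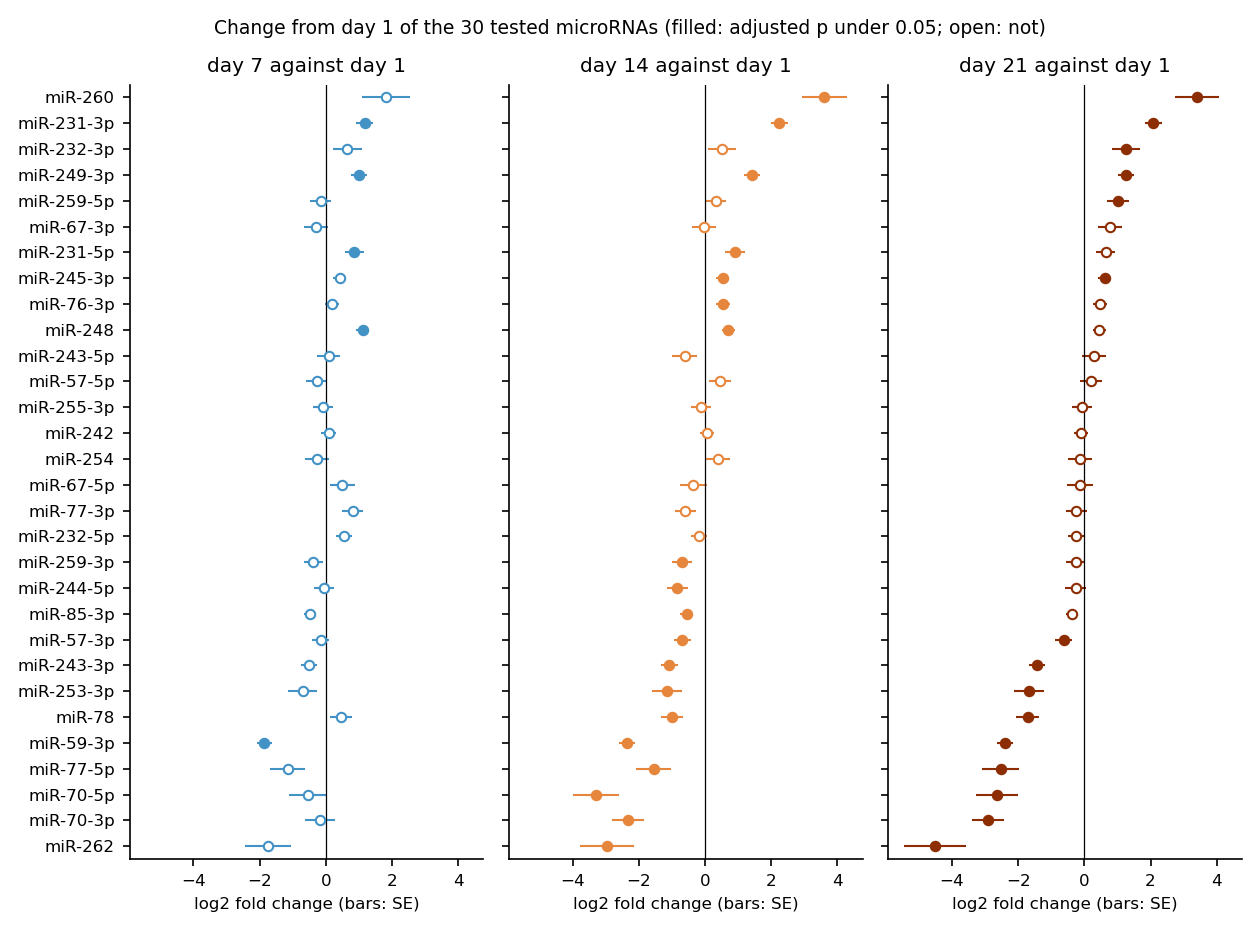
log2 fold change of the 30 tested microRNAs at day 7, day 14 and day 21 against day 1 (x axis; bars: standard error; rows ordered by the value at day 21; filled points: adjusted p under 0.05). At day 7 only 5 points are filled, and by day 21 the values run from 3.40 for miR-260 to -4.51 for miR-262. Both of these lay under 10 CPM on average, and the filter on low counts favoured the direction of each.

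*mir-70* gave the largest change in CPM of the set, though miR-262 and miR-260 moved by more on the log2 scale. The gene lies in an intron of *pmp-5*, which encodes a predicted peroxisomal ABC transporter, on the same strand (WBGene00003298, WBcel235, chromosome V from 6665536 to 6665635 on the minus strand). miR-70-3p was at 80062, 160977 and 82407 CPM in day 1 worms and 114892, 81763 and 87320.1 CPM in day 7 worms. It was at 10363, 30929 and 23450.3 CPM in day 14 worms and 25167, 10044 and 7685 CPM in day 21 worms. Each day 14 and day 21 library lay below each day 1 and day 7 library, while days 1 and 7 overlapped. Its log2 fold change was -0.19 (SE 0.45, edgeR adjusted p = 0.795) for day 7, -2.32 (SE 0.48, edgeR adjusted p = 6.62e-04) for day 14 and -2.91 (SE 0.49, edgeR adjusted p = 1.03e-04) for day 21, each against day 1, and -2.13 (SE 0.47, edgeR adjusted p = 0.00345) at day 14 against day 7. Its mean at day 21 was 13.3% of that at day 1. Day 14 replicate 1 and day 21 replicate 1 had levels close to those of the other age. Without day 21 replicate 1 the value at day 21 against day 1 was -3.71. The rare arm miR-70-5p had summed counts of 408 in day 1 worms, 146 in day 7 worms, 17 in day 14 worms and 39 in day 21 worms. It fell too, with log2 fold changes of -3.29 (SE 0.71, edgeR adjusted p = 8.73e-04) at day 14 and -2.63 (SE 0.64, edgeR adjusted p = 0.00192) at day 21 against day 1 (-4.28 without day 21 replicate 1). At day 14 against day 7 it fell by 2.74 on the log2 scale (edgeR adjusted p = 0.00732), beside the fall of 2.13 of the other arm. miR-70-5p reached the 1.36 CPM of the filter in 3 libraries of day 1 and 3 of day 7. It did so in 0 of day 14 and 1 of day 21, so that the filter favoured its fall. Its p-values are thus no support for those of the other arm.

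miR-78 and miR-77-3p also fell between day 7 and day 14. Their day 7 libraries lay above all of day 1, a difference that did not pass the test. miR-78 (WBGene00003306, WBcel235, chromosome IV from 15165647 to 15165742 on the plus strand, in no protein-coding gene) was at 231.2, 245.4 and 250.4 CPM in day 1 worms and 329.9, 336 and 336 CPM in day 7 worms. It was at 79.7, 145 and 137 CPM in day 14 worms and 119.7, 61.2 and 40.6 CPM in day 21 worms. All day 7 libraries lay above, and all day 14 and day 21 libraries below, those of day 1. It had log2 fold changes of 0.46 (SE 0.33, edgeR adjusted p = 0.288) for day 7, -1.01 (SE 0.33, edgeR adjusted p = 0.0162) for day 14 and -1.71 (SE 0.34, edgeR adjusted p = 4.82e-04) for day 21 against day 1, and of -1.47 (SE 0.34, edgeR adjusted p = 0.00402) at day 14 against day 7. The call at day 14 against day 1 was lost without day 14 replicate 1 (edgeR adjusted p = 0.0536), and the value at day 21 was -2.38 without day 21 replicate 1. miR-77-3p (WBGene00003305, WBcel235, chromosome II from 12519268 to 12519367 on the plus strand, in no protein-coding gene) was at 16008, 8672 and 19601 CPM in day 1 worms and 25453, 31475 and 20623 CPM in day 7 worms. It was at 8145, 10200.2 and 10849 CPM in day 14 worms and 17755, 8614 and 10904 CPM in day 21 worms. The day 7 libraries stood above all others, and day 1 overlapped with day 14 and with day 21. Its log2 fold change was 0.81 (SE 0.32, edgeR adjusted p = 0.0556) at day 7 against day 1 and -1.41 (SE 0.32, edgeR adjusted p = 0.004) at day 14 against day 7, while day 21 against day 1 gave -0.25 (SE 0.32, edgeR adjusted p = 0.492). The higher level at day 7 passed with RLE size factors and in DESeq2. At day 14 against day 1 the value was -0.60 (SE 0.32, edgeR adjusted p = 0.107), and it was -1.01 without day 1 replicate 2 (edgeR adjusted p = 0.0109).

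In the edgeR fit, miR-59-3p was the one microRNA of the set that passed as lower by day 7. miR-262 (-1.75, edgeR adjusted p = 0.0543) and miR-85-3p (-0.48, edgeR adjusted p = 0.0532) lay just past the threshold, and passed as lower under 13 of 20 and 11 of 21 alternatives. miR-59-3p was at 1442, 2388 and 1604 CPM in day 1 worms and 535, 452 and 516 CPM in day 7 worms. It was at 351, 401 and 309 CPM in day 14 worms and 327, 365 and 341 CPM in day 21 worms. Every library of day 7 and later lay below every day 1 library. *mir-59* overlaps no protein-coding gene (WBGene00003287, WBcel235, chromosome IV from 11309154 to 11309253 on the minus strand). Against day 1, its log2 fold change was -1.85 (SE 0.22, edgeR adjusted p = 1.36e-05) for day 7, -2.36 (SE 0.23, edgeR adjusted p = 7.05e-07) for day 14 and -2.40 (SE 0.23, edgeR adjusted p = 5.85e-07) for day 21. By day 7 its mean was 27.7% of that at day 1 and by day 21 19.0%, and between days 7 and 14 it had a log2 fold change of -0.50 (SE 0.22, edgeR adjusted p = 0.0776), which passed without day 1 replicate 2, with scaling by total counts and under the strictest filter on low counts. The other arm, miR-59-5p, had only 12 counts in all.

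Other microRNAs fell more slowly. miR-243-3p, the arm that RDE-1 binds, was at 141, 277 and 194 CPM in day 1 worms and 163, 119.8 and 147 CPM in day 7 worms. It was at 98.1, 90.03 and 102 CPM in day 14 worms and 75.3, 68.9 and 82.1 CPM in day 21 worms. Each day 21 library lay below each day 14 library, and each day 14 library below each day 7 and day 1 library. Its log2 fold change against day 1 was -0.51 (SE 0.25, edgeR adjusted p = 0.118) for day 7, -1.07 (SE 0.25, edgeR adjusted p = 0.00163) for day 14 and -1.43 (SE 0.25, edgeR adjusted p = 1.57e-04) for day 21. *mir-243* lies in an intron of R08C7.12 on the same strand (WBGene00003337, WBcel235, chromosome IV from 4450779 to 4450876 on the plus strand). miR-253-3p, from an intron of F44E7.5 (WBGene00003347, WBcel235, chromosome V from 5780510 to 5780616 on the minus strand), was at 396, 1443 and 548 CPM in day 1 worms and 556, 386 and 529 CPM in day 7 worms. It was at 323, 474 and 272 CPM in day 14 worms and 265, 349 and 129 CPM in day 21 worms. Day 1 replicate 2 stood at more than any other library, and the day 21 libraries lay below all of day 1. The fall was -1.16 (SE 0.45, edgeR adjusted p = 0.0329) at day 14 and -1.68 (SE 0.45, edgeR adjusted p = 0.00421) at day 21 against day 1 on the log2 scale. Without day 1 replicate 2 the value at day 14 was -0.56 (edgeR adjusted p = 0.150), and the call at day 14 was lost as well without day 14 replicate 3 (-1.10, edgeR adjusted p = 0.0552) and without both day 14 replicate 1 and day 21 replicate 1 (-1.08, edgeR adjusted p = 0.0601).

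The 5p arm of *mir-77* took a course of its own, other than that of the 3p arm. miR-77-5p was at 1302, 3249.6 and 806 CPM in day 1 worms and 935, 712 and 775 CPM in day 7 worms. It was at 340.4, 925 and 558 CPM in day 14 worms and 482, 328 and 119.7 CPM in day 21 worms. Day 1 replicate 2 was again the highest library, and day 21 lay below day 1 in full. Against day 1, its log2 fold change was -1.15 (SE 0.53, edgeR adjusted p = 0.0968) for day 7, -1.55 (SE 0.53, edgeR adjusted p = 0.0188) for day 14 and -2.53 (SE 0.55, edgeR adjusted p = 9.57e-04) for day 21, and without day 1 replicate 2 it was -0.96 at day 14 (edgeR adjusted p = 0.0934) and -1.94 at day 21. Without day 21 replicate 1 it was -3.13 at day 21. At day 7 it passed under 5 of 21 alternatives, day 14 replicate 1 left out among them. miR-262, at the low end of the set, had summed counts of 139 in day 1 worms, 35 in day 7 worms, 12 in day 14 worms and 5 in day 21 worms, and 64 of the 139 counts at day 1 came from replicate 2. Against day 1, its log2 fold change was -2.96 (SE 0.80, edgeR adjusted p = 0.00462) at day 14 and -4.51 (SE 0.93, edgeR adjusted p = 5.46e-04) at day 21. Without day 1 replicate 2 it was -1.87 and -3.41. miR-262 reached the 1.36 CPM of the filter in 3 libraries of day 1 and 2 of day 7. It did so in 0 of day 14 and 0 of day 21, so that the filter favoured its fall.

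Smaller falls were called at day 14 for miR-85-3p, miR-244-5p, miR-57-3p and miR-259-3p. miR-85-3p, from an intron of F49E12.8 on the opposite strand (WBGene00003313, WBcel235, chromosome II from 8393553 to 8393658 on the plus strand), was at 6631, 6059 and 7726 CPM in day 1 worms and 4994, 4425 and 5248 CPM in day 7 worms. It was at 4276, 4395 and 5186 CPM in day 14 worms and 5013, 4929 and 5803 CPM in day 21 worms. Each later age lay below day 1 with no overlap, and day 7, day 14 and day 21 overlapped with each other. Its log2 fold changes against day 1 were -0.48 (SE 0.18, edgeR adjusted p = 0.0532) for day 7, -0.56 (SE 0.18, edgeR adjusted p = 0.0156) for day 14 and -0.37 (SE 0.18, edgeR adjusted p = 0.0784) for day 21, and the call at day 14 was lost without day 14 replicate 1 (edgeR adjusted p = 0.0567). Without day 1 replicate 2 it passed at day 7 (-0.73, edgeR adjusted p = 0.0105) and at day 21 (-0.59, edgeR adjusted p = 0.0186), and at day 21 also without day 21 replicate 3 (-0.60, edgeR adjusted p = 0.0310) and with no filter on low counts (-0.53, edgeR adjusted p = 0.0461). miR-244-5p was at 31.2, 12.7 and 33.4 CPM in day 1 worms and 20.1, 27.4 and 27.6 CPM in day 7 worms. It was at 15.4, 12.8 and 15.6 CPM in day 14 worms and 22.1, 18.6 and 24.3 CPM in day 21 worms. The log2 fold change was -0.84 (SE 0.32, edgeR adjusted p = 0.0312) at day 14. Its day 21 libraries overlapped with those of day 1, and without day 1 replicate 2 it passed as lower at day 21 (-0.71, edgeR adjusted p = 0.0250). At day 14 against day 7 its log2 fold change was -0.78 (SE 0.32, edgeR adjusted p = 0.0628). That value passed under 6 of 21 alternatives, DESeq2 and leaving out day 1 replicate 2 among them. miR-57-3p, the rare arm of *mir-57*, was at 12.3, 13.5 and 18.4 CPM in day 1 worms and 13.3, 11.1 and 15.7 CPM in day 7 worms. It was at 7.52, 9.08 and 10.9 CPM in day 14 worms and 9.23, 11.4 and 8.28 CPM in day 21 worms. The values against day 1 were -0.69 (SE 0.26, edgeR adjusted p = 0.0329) at day 14 and -0.62 (SE 0.26, edgeR adjusted p = 0.0461) at day 21. miR-259-3p, with 4.77 to 10.5 CPM over the 12 libraries, had a log2 fold change of -0.69 (SE 0.30, edgeR adjusted p = 0.0495) at day 14. Of these 4, none kept its call at day 14 without the pair of day 14 replicate 1 and day 21 replicate 1 (edgeR adjusted p of 0.0584 and more). The fit of only the 2 ages compared lost them as well, and with it the call of miR-57-3p at day 21 (edgeR adjusted p = 0.113), which was also lost without day 1 replicate 3, day 7 replicate 1 or day 21 replicate 3 and with the replicate block (edgeR adjusted p = 0.0661). Single libraries ended them too, which were day 1 replicates 1 and 3 and day 14 replicates 1 and 2 for miR-244-5p, day 1 replicate 3 and day 14 replicates 1 and 2 for miR-57-3p, and 6 libraries of days 1, 7 and 14 for miR-259-3p.

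Among the microRNAs that rose, miR-231-3p and miR-249-3p passed as higher than day 1 at every later age. miR-231-3p (*mir-231*, WBGene00003324, WBcel235, chromosome III from 7545057 to 7545155 on the minus strand, in no protein-coding gene) was at 10.6, 15.4 and 11.6 CPM in day 1 worms and 31.1, 26.0 and 27.6 CPM in day 7 worms. It was at 67.1, 62.0 and 47.2 CPM in day 14 worms and 39.1, 62.2 and 57.6 CPM in day 21 worms. Each age up to day 14 lay above the one before with no overlap, and day 21 overlapped with day 14. The log2 fold change was 1.18 (SE 0.26, edgeR adjusted p = 0.00205) for day 7, 2.24 (SE 0.26, edgeR adjusted p = 4.23e-06) for day 14 and 2.09 (SE 0.26, edgeR adjusted p = 6.97e-06) for day 21 against day 1, and 1.06 (SE 0.25, edgeR adjusted p = 0.00452) at day 14 against day 7. miR-231-5p rose less, with 3.07 to 8.64 CPM over the libraries and log2 fold changes of 0.86 (SE 0.29, edgeR adjusted p = 0.0295) at day 7 and 0.91 (SE 0.30, edgeR adjusted p = 0.0148) at day 14. The call of the 5p arm at day 7 was lost under 10 of 21 alternatives, 9 of which left out a single library (day 1 replicates 1 and 3, any of day 7, day 14 replicates 2 and 3, day 21 replicates 2 and 3), and that at day 14 without day 1 replicate 1, day 1 replicate 3 or day 14 replicate 1 and with scaling by total counts. miR-249-3p (*mir-249*, WBGene00003343, WBcel235, chromosome X from 3006440 to 3006536 on the minus strand) was at 15.2, 24.0 and 18.7 CPM in day 1 worms and 38.4, 34.5 and 42.3 CPM in day 7 worms. It was at 49.2, 62.6 and 43.1 CPM in day 14 worms and 42.8, 49.3 and 45.5 CPM in day 21 worms. All libraries of day 7 and later stood above those of day 1, with log2 fold changes of 1.00 (SE 0.24, edgeR adjusted p = 0.0039) for day 7, 1.43 (SE 0.24, edgeR adjusted p = 1.21e-04) for day 14 and 1.26 (SE 0.24, edgeR adjusted p = 3.29e-04) for day 21. *mir-249* has another microRNA gene, *mir-785*, 1679 bases away.

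miR-260 rose by the largest factor of the set, at a low level. It reached the 1.36 CPM of the filter in 1 library of day 1 and 2 of day 7. It did so in 3 of day 14 and 3 of day 21, so that the filter favoured its rise. Its summed counts were 21 in day 1 worms, 51 in day 7 worms, 140 in day 14 worms and 148 in day 21 worms, and its level was 0.128, 1.95 and 0.475 CPM in day 1 worms and 2.33, 1.03 and 3.30 CPM in day 7 worms. It was at 8.83, 9.39 and 4.71 CPM in day 14 worms and 4.49, 9.03 and 6.52 CPM in day 21 worms. All day 14 and day 21 libraries lay above all of day 1. The log2 fold change was 3.61 (SE 0.67, edgeR adjusted p = 2.87e-04) at day 14 and 3.40 (SE 0.67, edgeR adjusted p = 4.04e-04) at day 21 against day 1, and 1.79 (SE 0.58, edgeR adjusted p = 0.0241) at day 14 against day 7. At day 7 against day 1 it had 1.82 (SE 0.71, edgeR adjusted p = 0.0532), and 2.59 without day 1 replicate 2 (edgeR adjusted p = 0.00437). The rise at day 7 passed under 8 of 20 alternatives, DESeq2 and scaling by total counts among them. At day 21 the log2 fold change was 2.65 without day 1 replicate 1 and 4.19 without day 1 replicate 2. The change from day 7 to day 14 was lost without day 7 replicate 1, day 7 replicate 2 or day 14 replicate 2 (edgeR adjusted p of up to 0.0870).

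miR-245-3p and miR-76-3p rose slightly in this fit. miR-245-3p was at 172, 152 and 214 CPM in day 1 worms and 246, 268 and 206 CPM in day 7 worms. It was at 263, 266 and 246 CPM in day 14 worms and 259, 308 and 257 CPM in day 21 worms. Its log2 fold changes were 0.53 (SE 0.20, edgeR adjusted p = 0.0339) at day 14 and 0.61 (SE 0.21, edgeR adjusted p = 0.0153) at day 21. miR-76-3p was at 190.4, 177 and 236 CPM in day 1 worms and 204, 247 and 234 CPM in day 7 worms. It was at 372, 257 and 254 CPM in day 14 worms and 281, 291 and 272 CPM in day 21 worms. Its values were 0.55 (SE 0.22, edgeR adjusted p = 0.0355) at day 14 and 0.48 (SE 0.22, edgeR adjusted p = 0.0564) at day 21. For both, every day 14 and day 21 library lay above every day 1 library. The call of miR-76-3p at day 14 was lost under 19 of 21 alternatives, that of miR-245-3p at day 14 under 18 of 21 and at day 21 under 11 of 21, with scaling by total counts and the fit of only 2 ages among them in each case.

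miR-248 and miR-232-5p were highest at day 7. miR-248 (*mir-248*, WBGene00003342, WBcel235, chromosome X from 2262373 to 2262470 on the minus strand, in no protein-coding gene) was at 381, 392 and 485 CPM in day 1 worms and 1023, 828 and 887 CPM in day 7 worms. It was at 644, 736 and 664 CPM in day 14 worms and 624, 598 and 493 CPM in day 21 worms. The day 7 libraries lay above all others, day 14 and day 21 lay above day 1, and day 21 lay below day 14. It rose at day 7 by 1.12 (SE 0.20, edgeR adjusted p = 3.59e-04) and at day 14 by 0.70 (SE 0.19, edgeR adjusted p = 0.00586) on the log2 scale against day 1, and at day 21 it had 0.45 (SE 0.19, edgeR adjusted p = 0.0516). The call at day 14 was lost without day 1 replicate 1 and with scaling by total counts (edgeR adjusted p of up to 0.154). The value at day 21 passed with RLE size factors, in DESeq2 and where each library had to reach 10 counts. From day 7 to day 14 miR-248 had a log2 fold change of -0.42 (SE 0.19, edgeR adjusted p = 0.0935). That value passed with scaling by total counts, in DESeq2 and under the same strict filter. miR-232-5p was at 11.3, 11.3 and 15.7 CPM in day 1 worms and 19.0, 19.4 and 18.1 CPM in day 7 worms. It was at 9.21, 12.5 and 12.5 CPM in day 14 worms and 12.6, 9.03 and 10.5 CPM in day 21 worms. Its day 7 libraries too lay above all others, and it fell by 0.72 at day 14 against day 7 on the log2 scale (edgeR adjusted p = 0.0303), a call lost under 9 of 21 alternatives, any 1 of the day 7 libraries among those left out.

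**Figure D4:**
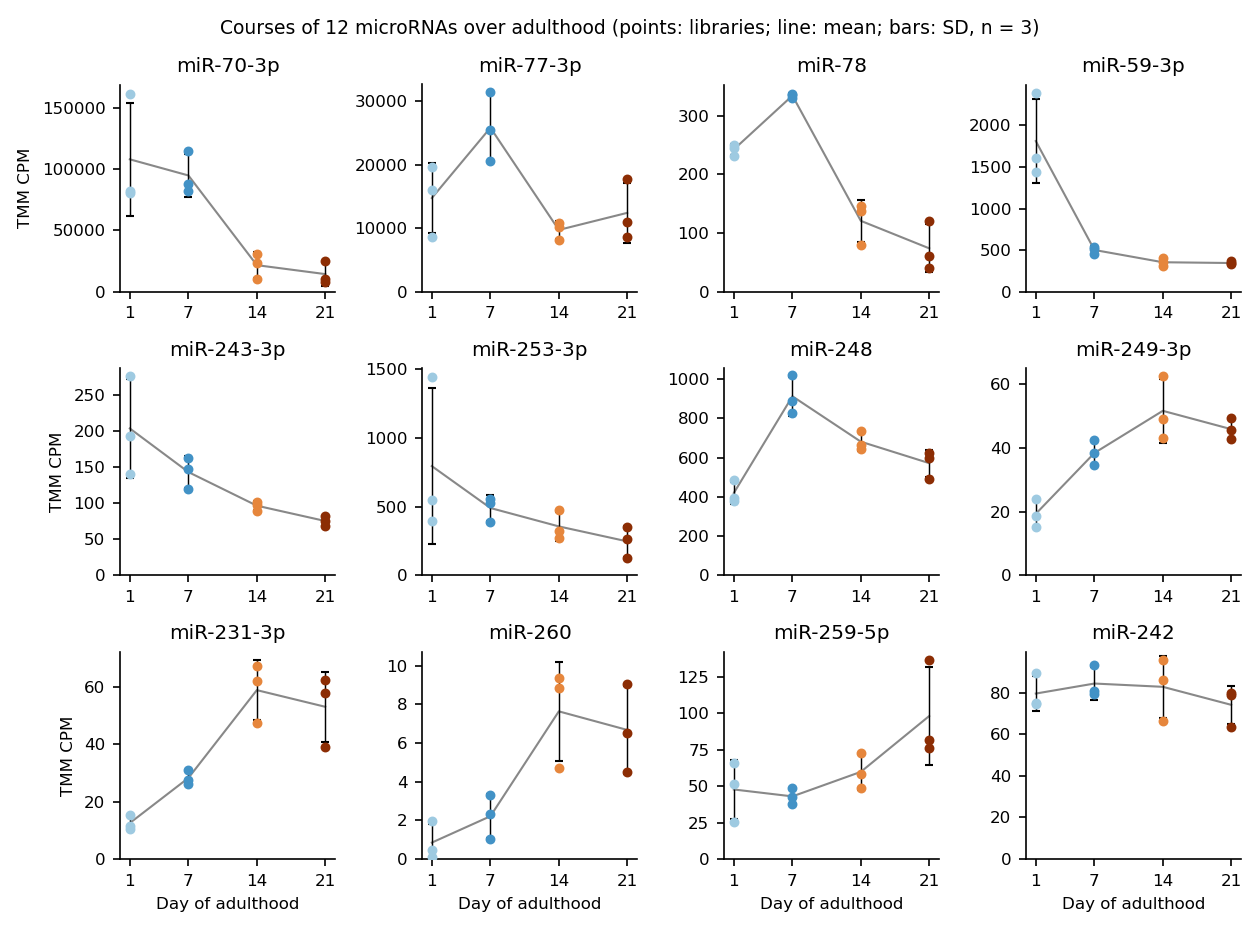
Courses of 12 microRNAs over adulthood (x axis: day; y axis: TMM CPM from 0; points: libraries; line: mean; bars: SD, n = 3). miR-70-3p and miR-78 drop between days 7 and 14, miR-59-3p between days 1 and 7, and miR-248 and miR-77-3p peak at day 7. The means of miR-231-3p, miR-249-3p and miR-260 climb up to day 14, and miR-242 stays between 63.7 and 95.8 CPM.

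miR-259-5p and miR-232-3p passed against day 1 at day 21, and not at day 7 or day 14. miR-259-5p (*mir-259*, WBGene00003353, WBcel235, chromosome V from 10539025 to 10539125 on the minus strand, in no protein-coding gene) was at 51.7, 25.6 and 66.1 CPM in day 1 worms and 42.5, 48.6 and 38.1 CPM in day 7 worms. It was at 72.7, 48.5 and 58.5 CPM in day 14 worms and 81.6, 76.4 and 137 CPM in day 21 worms. Each day 21 library lay above all libraries of the other ages. The log2 fold change at day 21 against day 1 was 1.03 (SE 0.33, edgeR adjusted p = 0.0125), and it was 0.62 without day 1 replicate 2 (edgeR adjusted p = 0.0999), 0.56 without day 21 replicate 3 (edgeR adjusted p = 0.182) and lost with scaling by total counts. Against day 14 it was 0.71 (SE 0.33, edgeR adjusted p = 0.627). miR-232-3p was at 9.48, 2.15 and 9.60 CPM in day 1 worms and 10.3, 14.6 and 9.76 CPM in day 7 worms. It was at 12.2, 7.08 and 12.4 CPM in day 14 worms and 16.0, 12.7 and 24.5 CPM in day 21 worms. Its log2 fold change was 1.26 (SE 0.43, edgeR adjusted p = 0.0168) at day 21 against day 1. That call was lost in the same 3 settings. miR-67-3p, the arm copied in control oligos, was at 23.1, 8.60 and 27.6 CPM in day 1 worms and 16.6, 18.2 and 14.0 CPM in day 7 worms. It was at 21.0, 15.7 and 22.1 CPM in day 14 worms and 27.2, 27.9 and 47.6 CPM in day 21 worms. Day 1 replicate 2 was its lowest library and day 21 replicate 3 its highest, and the log2 fold change of 0.77 (SE 0.36, edgeR adjusted p = 0.0683) at day 21 against day 1 passed in DESeq2 alone.

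In the edgeR fit no test between ages was passed by 7 of the 30, which were miR-57-5p, miR-254, miR-242, miR-67-3p, miR-255-3p, miR-67-5p and miR-243-5p. The matching share of the whole table was not counted, so 7 cannot be read as many or few. The edgeR test over the 4 ages is a different one, and there 56.7% of the 30 passed, against 74.3% of the table. miR-57-5p, the main arm of the Hox-linked *mir-57* (WBGene00003285, WBcel235, chromosome II from 7850499 to 7850597 on the minus strand, in no protein-coding gene), was at 7832, 15146 and 8233 CPM in day 1 worms and 10250.0, 6738 and 8870.4 CPM in day 7 worms. It was at 19572, 12107 and 10924 CPM in day 14 worms and 8335, 15804 and 11832 CPM in day 21 worms. Days 1 and 14, and days 1 and 21, overlapped, while every day 14 library stood above every day 7 library. Its log2 fold change was 0.72 (SE 0.32, edgeR adjusted p = 0.0855) at day 14 against day 7 and 0.20 (SE 0.32, edgeR adjusted p = 0.578) at day 21 against day 1. Under 5 of 21 alternatives it passed as higher at day 14 against day 7, which included leaving out day 1 replicate 2 (0.74, edgeR adjusted p = 0.0245), day 14 replicate 2, day 14 replicate 3 or day 21 replicate 1, and the fit of only 2 ages. Against day 1 it passed at day 14 without day 1 replicate 2 (0.66, edgeR adjusted p = 0.0468). miR-242, which lies across an exon of *nhr-78* on the opposite strand (WBGene00003336, WBcel235, chromosome IV from 4274247 to 4274342 on the plus strand), was at 74.9, 74.5 and 89.5 CPM in day 1 worms and 80.7, 93.4 and 79.2 CPM in day 7 worms. It was at 95.8, 86.3 and 66.3 CPM in day 14 worms and 80.1, 78.8 and 63.7 CPM in day 21 worms. All 4 ages overlapped, and the log2 fold change at day 21 against day 1 was -0.10 (SE 0.21, edgeR adjusted p = 0.68). miR-254, from an intron of *gcy-9*, a receptor guanylyl cyclase of the carbon dioxide-sensing neurons (WBGene00003348, WBcel235, chromosome X from 11333531 to 11333630 on the minus strand), was at 124, 293 and 172 CPM in day 1 worms and 173, 129.5 and 190.4 CPM in day 7 worms. It was at 324, 270.1 and 174 CPM in day 14 worms and 124, 265 and 149 CPM in day 21 worms. All 4 ages overlapped again, with 0.38 (SE 0.36, edgeR adjusted p = 0.352) at day 14 and -0.13 (SE 0.36, edgeR adjusted p = 0.749) at day 21. miR-255-3p (3.02 to 5.54 CPM), miR-67-5p (1.43 to 6.73 CPM) and miR-243-5p (1.23 to 3.82 CPM) rested on few counts, and their log2 fold changes at day 21 were -0.08, -0.14 and 0.29 with SE of 0.31, 0.39 and 0.35. miR-243-5p passed as lower at day 14 against day 1 with scaling by total counts (-0.91, edgeR adjusted p = 0.0331) and without day 1 replicate 1 (-0.95, edgeR adjusted p = 0.0493). *mir-67* sits in an intron of *zmp-1*, a zinc metalloprotease gene, on the same strand (WBGene00003295, WBcel235, chromosome III from 5931349 to 5931447 on the minus strand).

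Between day 14 and day 21, 0 of the 30 passed in edgeR and 0 in DESeq2, as did 0% of the table in edgeR. For 3 of the 30 the edgeR p was under 0.05 before adjustment, and the smallest edgeR adjusted p was 0.627. Libraries of the 2 ages did not overlap for 7 of the 30, where 9.39% of the table did not. Above all day 14 libraries (6.53% of the table) were miR-259-5p, miR-67-3p, miR-244-5p, miR-232-3p and miR-243-5p, and below them (2.86%) were miR-248 and miR-243-3p. Without both day 14 replicate 1 and day 21 replicate 1, 3 fell at day 21 against day 14, namely miR-70-3p (-1.72, edgeR adjusted p = 0.00389), miR-77-5p (-1.86, edgeR adjusted p = 0.0362) and miR-78 (-1.59, edgeR adjusted p = 7.19e-04). These libraries were singled out from the same counts, so that the 3 calls restate where they lie. The share of the whole table that passed without these libraries was not counted.

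The balance of the arms was read from the 8 hairpins with both arms tested, as the log2 of the 5p over the 3p counts in each library, with 0.5 added to each count. It is a description with no test. In *mir-70* the 5p arm had only 1, 7 and 9 counts in day 14 worms and 33, 1 and 5 in day 21 worms. The ratios of that hairpin at these ages thus rest on few reads. For *mir-70*, the ratio was -12.77, -15.52 and -12.84 in day 1 worms, -14.45, -13.31 and -14.03 in day 7 worms, -15.17, -14.71 and -14.03 in day 14 worms and -13.12, -15.29 and -13.10 in day 21 worms, and day 21 overlapped with day 1. For *mir-77*, it was -3.62, -1.42 and -4.60 in day 1 worms, -4.77, -5.47 and -4.73 in day 7 worms, -4.58, -3.46 and -4.28 in day 14 worms and -5.20, -4.72 and -6.51 in day 21 worms, and all day 21 libraries lay below those of day 1. For *mir-231* it was -1.77, -1.76 and -1.80 in day 1 worms, -2.39, -2.12 and -1.87 in day 7 worms, -2.94, -3.47 and -2.99 in day 14 worms and -2.58, -3.39 and -3.77 in day 21 worms, again with day 21 below day 1. The arms of *mir-232* were close only in their summed counts, 1463 for 5p and 1232 for 3p, and their order turned over the course. The ratio was 0.26, 2.35 and 0.71 in day 1 worms, 0.89, 0.41 and 0.88 in day 7 worms, -0.40, 0.81 and 0.02 in day 14 worms and -0.34, -0.49 and -1.22 in day 21 worms, positive in each day 1 and day 7 library and negative in each day 21 library. In *mir-243* and *mir-259* the ratio moved upwards. It was -6.38, -6.26 and -6.21 in day 1 worms, -5.86, -5.55 and -5.77 in day 7 worms, -5.64, -6.11 and -5.80 in day 14 worms and -5.18, -4.26 and -4.40 in day 21 worms for *mir-243* and 2.45, 1.66 and 2.69 in day 1 worms, 2.77, 2.94 and 2.08 in day 7 worms, 3.62, 3.32 and 3.13 in day 14 worms and 3.45, 3.82 and 3.69 in day 21 worms for *mir-259*, and in both the day 21 libraries stood above all of day 1. The difference of the means, day 21 minus day 1, was 1.67 and 1.38 for these hairpins, and -1.47, -1.79 and -2.26 for *mir-231*, *mir-232* and *mir-77*. Without day 1 replicate 2, which moved the values of *mir-232* and *mir-77*, they were -1.46, -1.17 and -1.36. For *mir-57* (0.82), *mir-67* (-1.22) and *mir-70* (-0.12) the libraries overlapped, and the values were 1.18, -0.72 and -1.03 without day 1 replicate 2.

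**Figure D5:**
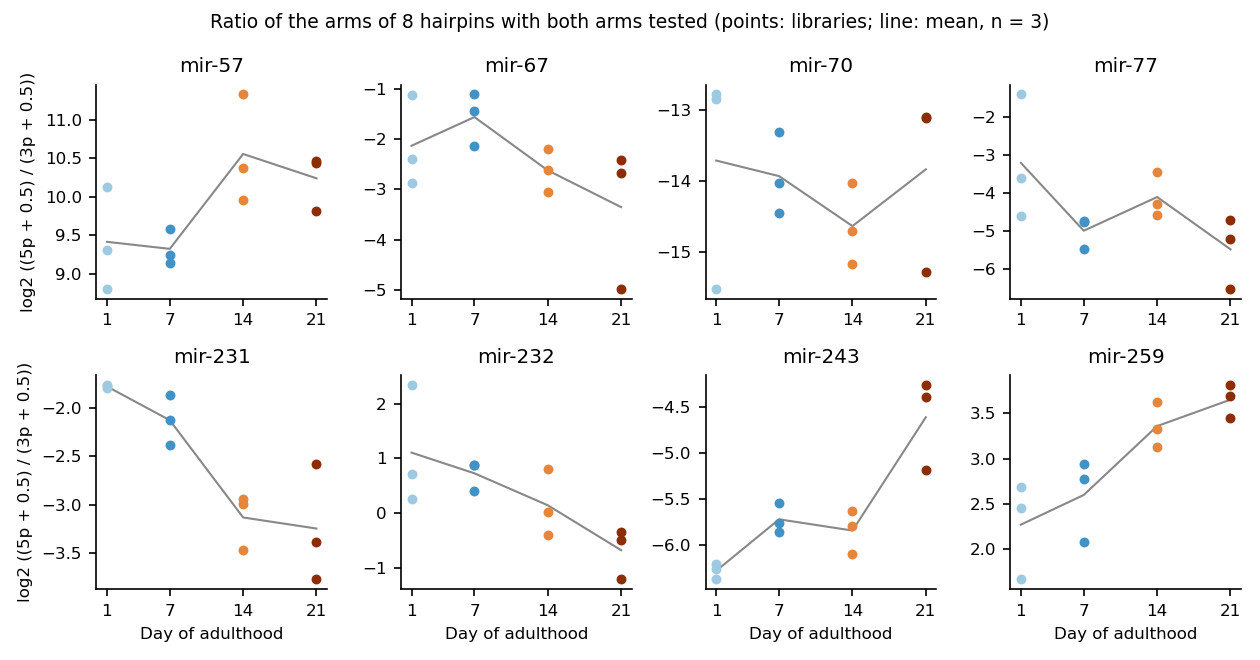
log2 ratio of 5p to 3p counts, with 0.5 added to each, for the 8 hairpins with both arms tested (x axis: day; points: libraries; line: mean of 3). The ratio is lower at day 21 than at day 1 in every library for *mir-77*, *mir-231* and *mir-232*, higher for *mir-243* and *mir-259*, and overlaps for the other 3.

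Of the 37 hairpins, 35 were found by name in the annotation of WBcel235, 2 on chromosome I, 7 on II, 4 on III, 8 on IV, 8 on V and 6 on X. Protein-coding genes overlapped 12 of them.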

How the data were processed

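The deposited table gave raw counts per mature microRNA and, beside them, the authors' CPM values, which served only to compare ranks. Per the submitters' processing notes and the methods, reads were handled with Tophat, miRDeep and DESeq on the build WBcel215.67, with versions not given in the sources used here. The 6 deposited comparison tables hold the authors' group means, fold changes and p-values and were not used. Of 375 lines that name a microRNA, the line with the highest count was kept where a microRNA had several, which left 368. A further line named no microRNA and held 0 counts.

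Counts were tested with edgeR 4.0.16 in R 4.3.3 (TMM, filterByExpr with a minimum count of 10, glmQLFit and glmQLFTest, age as the only factor, 12 libraries, Benjamini-Hochberg threshold 0.05). The SE of a log2 fold change was derived from its F statistic. DESeq2 1.42.0, RLE factors, total counts, other filters, a fit of 2 ages, a replicate block, summed lines and each library left out served as alternatives, and leaving out both day 14 replicate 1 and day 21 replicate 1 was chosen after seeing the data. The scripts were tested on simulated data. Every tested microRNA of the set was named, and those with few counts by their range. A rule on shared seeds was not applied. No replicate pair matched within counting noise (the chi-square statistic was at least 191 times its degrees of freedom). The members and lists were chosen with earlier results of these data known. Gene positions come from the Ensembl annotation of WBcel235, matched by name, and the table itself gives none. Floors cover counting error only.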

Additional observations from a re-analysis of the deposited data

How the results depend on the processing

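No alternative reversed a direction among the called results. At day 7 against day 1 the count of 5 called microRNAs became 11 with DESeq2 (8 higher, 3 lower) and 9 without both day 14 replicate 1 and day 21 replicate 1. Without both of these libraries it was 12 in place of 19 at day 14 against day 1 and 3 in place of 0 at day 21 against day 14. The cause was not tested. With a single library left out, the counts ran from 4 to 8 at day 7, from 11 to 17 at day 14 and from 12 to 15 at day 21 against day 1, from 5 to 10 at day 14 against day 7, from 0 to 0 at day 21 against day 14, and from 13 to 20 over the 4 ages. With the replicate block the counts were 5, 17, 14, 7 and 0 in the 5 comparisons and 16 over the ages. The share of the whole table that passed was counted in the main fit only, so that none stands beside these counts. Deviations of same-numbered libraries correlated at -0.65 to 0.42, with 5 of 18 pairs over 0.1. Of 12 libraries, 4 correlated best with their own number. The lowest value was that of day 14 replicate 1 with day 21 replicate 1. With 3 libraries at each age, these values cannot decide whether the numbers pair the libraries, and the main fit took no pairing. Over the single microRNAs and all alternatives, 2928 values kept their side of the threshold, 114 were lost and 83 were gained. The calls of miR-59-3p, miR-70-3p, miR-231-3p, miR-243-3p and miR-249-3p held under all 21 alternatives. Depth limits the microRNAs under 10 CPM, whose calls rest on few counts.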
